A study of Mus musculus with 24 samples.

Results

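The marker genes of inhibitory neurons were followed through RNA sequencing of the mouse hippocampus. They are the 10 genes Gad1, Gad2, Slc32a1, Pvalb, Sst, Vip, Npy, Tac1, Lhx6 and Reln, taken by symbol from a count table of 51733 rows. Each was found in exactly 1 row. The table lists them in capitals with 1 transcript identifier each, GAD1 as ENSMUST00000094934, GAD2 as ENSMUST00000028123, SLC32A1 as ENSMUST00000045738, PVALB as ENSMUST00000005860, SST as ENSMUST00000004480, VIP as ENSMUST00000019906, NPY as ENSMUST00000031843, TAC1 as ENSMUST00000185187, LHX6 as ENSMUST00000112960 and RELN as ENSMUST00000161356. All mice were adult C57BL/6 males of 2 to 3 months that carried Cre recombinase under the CaMKIIα promoter, which acts in excitatory forebrain neurons. Conditional knock-in (cKI) mice were homozygous for eIF2α A/A, in which the regulated serine of the translation factor eIF2α is alanine, together with fTg, a floxed wild-type copy that Cre removes. Mice labelled Control, titled Standard CaMKIIα-Cre+, had the same Cre, and their eIF2α alleles are not spelled out in the labels. RiboTag, by which Cre-expressing cells tag a ribosomal protein with HA, is named for both genotypes. Mice were taken 1 h after fear conditioning or naive, and the labels do not say whether the weak or the strong training protocol was used. The hippocampi of one mouse were pooled and gave an anti-HA immunoprecipitate (IP) and an input from the lysate left over, so that 12 mice gave 24 libraries in 8 groups of 3.

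Inhibitory neurons release GABA, which is made from glutamate by the enzymes encoded by Gad1 and Gad2 and loaded into vesicles by the transporter of Slc32a1. Their subtypes are told apart by further genes. These include Pvalb, for the calcium buffer parvalbumin of fast-spiking basket and chandelier cells, and the neuropeptide genes Sst, Vip, Npy and Tac1. Lhx6 encodes a transcription factor of interneurons born in the medial ganglionic eminence, and Reln a secreted matrix glycoprotein made in the adult hippocampus by interneurons and by Cajal-Retzius cells. CaMKIIα-Cre is not meant to act in these cells, and in a RiboTag precipitate their transcripts are set beside those of the tagged cells.

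Totals ranged from 30587694 to 43530930 counts in IPs and from 28810676 to 37732528 counts in inputs, and levels are given as counts-per-million values (CPM) of the library's total. Log2 fold changes come from edgeR after TMM scaling, which puts IPs higher against inputs by 0.31 on the log2 scale than plain CPM do. Between genotypes within a fraction this shift was at most 0.03 in size. Camk2a was at 4595 ± 522 CPM in IPs and 2921 ± 295 CPM in inputs (SD, n = 12 each), at a log2 ratio of 0.96 (SE 0.07, edgeR adjusted p 1.7e-11). Eif2s1, which encodes eIF2α, was higher in cKI than in control inputs, at a log2 ratio of 0.28 (SE 0.04, edgeR adjusted p 0.0024). The activity gene Fos missed the threshold for 1 h over naive in IPs. Its log2 ratio was 1.34 (SE 0.30, edgeR adjusted p 0.22) in cKI IPs and 0.89 (SE 0.29, edgeR adjusted p 0.26) in control IPs. A list of activity genes with Fos among them summed to 927 to 1131 CPM in cKI IPs at 1 h and 460 to 715 CPM in naive ones. In control IPs the sums were 1064 to 1694 CPM at 1 h and 732 to 926 CPM in naive mice. In cKI inputs they were 435 to 462 CPM at 1 h and 316 to 363 CPM in naive mice. The control inputs overlapped, at 440 to 721 and 317 to 451 CPM. Among inputs, naive cKI replicate 3 and naive control replicate 2 stood apart, with a root mean square distance of 0.37 and 0.30 log2 units from the median input, against at most 0.19 for the other 10. Sequencing lane went partly with the groups. All 6 cKI inputs and naive control inputs 1 and 2 were read on lane 4 and the other control inputs on lane 5. The naive cKI IPs and cKI IP 1 at 1 h were read on lane 5 and all other IPs on lane 6.

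All 10 marker genes were lower in IPs than in inputs, and all were still counted in every IP. Averaged over the 4 groups of mice, depletion was least for the genes of GABA synthesis and packaging and deepest for Pvalb and Tac1. The 10 together summed to between 135.5 and 307 CPM in IPs, against 884 to 1083 CPM in inputs. By edgeR all 10 fell at an adjusted p under 0.05, while 43.1% of the 17453 genes tested were called lower. The 12 IP values of each of the 10 lay below its 12 input values, while 42.5% of 17450 genes did not overlap, in either direction. The same 10 passed within each group of mice alone, where the share of all genes called lower was 35.1% in cKI mice at 1 h, 36.2% in naive cKI mice, 34.3% in controls at 1 h and 34.9% in naive controls. Their median log2 fold change was -2.26, beside -0.01 over all genes tested. In bulk samples, fewer cells of a type and less RNA per cell cannot be told apart.

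Gad1, the enzyme that makes most of the cell's basal GABA, ranged from 50.9 to 129 CPM with a median of 94.9 in IPs and from 293 to 368 CPM with a median of 329 in inputs. On the log2 scale IP over input was -1.51 (SE 0.10, edgeR adjusted p 9.1e-11). Gad2, the membrane-associated synthetic enzyme, ranged from 26 to 69.7 CPM with a median of 42.5 in IPs and from 156 to 213 CPM with a median of 190.1 in inputs, at a log2 ratio of -1.80 (SE 0.13, edgeR adjusted p 2.2e-10). For both genes the highest IP stayed well below the lowest input. Slc32a1, the vesicular GABA transporter, ranged from 11.5 to 46.7 CPM with a median of 26.2 in IPs and from 75.6 to 110.1 CPM with a median of 94.4 in inputs, at a log2 ratio of -1.53 (SE 0.18, edgeR adjusted p 4.0e-07). The groups did not overlap, but the IPs were more scattered than the inputs. No lane held IPs and inputs of the same mouse. With lane as a covariate Slc32a1 was at -0.91 (SE 0.53, edgeR adjusted p 0.16), and the other 9 genes were still called.

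Pvalb ranged from 1.88 to 4.72 CPM with a median of 2.73 in IPs and from 25.3 to 38.2 CPM with a median of 30.7 in inputs, the largest fall of the 10 at -3.01 (SE 0.10, edgeR adjusted p 1.3e-17). Sst, the peptide of dendrite-targeting interneurons, ranged from 17.2 to 36.9 CPM with a median of 24 in IPs and from 131 to 191 CPM with a median of 149.9 in inputs, at a log2 ratio of -2.30 (SE 0.10, edgeR adjusted p 4.3e-14). The highest IP of either gene was far under its lowest input. Vip, the peptide of cells that mostly inhibit other interneurons, ranged from 1.58 to 5.18 CPM with a median of 2.02 in IPs and from 15 to 22.6 CPM with a median of 17.6 in inputs, at a log2 ratio of -2.63 (SE 0.10, edgeR adjusted p 2.6e-16). Npy, a peptide of several interneuron types, ranged from 3.57 to 6.68 CPM with a median of 4.51 in IPs and from 21.5 to 34.6 CPM with a median of 23.2 in inputs, at a log2 ratio of -2.12 (SE 0.08, edgeR adjusted p 2.5e-17). The highest IP of both was naive cKI replicate 2. Tac1, the precursor of substance P, ranged from 0.417 to 1.26 CPM with a median of 0.697 in IPs and from 5.11 to 9.37 CPM with a median of 6.62 in inputs, at a log2 ratio of -2.90 (SE 0.12, edgeR adjusted p 2.9e-16). It had the fewest counts of the 10, with 14 to 44 per IP.

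The genes of lineage and matrix followed. Lhx6 ranged from 2.22 to 4.27 CPM with a median of 3.11 in IPs and from 20.3 to 26 CPM with a median of 23.1 in inputs, at a log2 ratio of -2.56 (SE 0.08, edgeR adjusted p 5.2e-19). Reln ranged from 12.5 to 22.4 CPM with a median of 18 in IPs and from 81.9 to 119 CPM with a median of 103 in inputs, at a log2 ratio of -2.23 (SE 0.09, edgeR adjusted p 1.5e-15). Neither gene had an IP that reached its inputs.

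**Figure D1:**
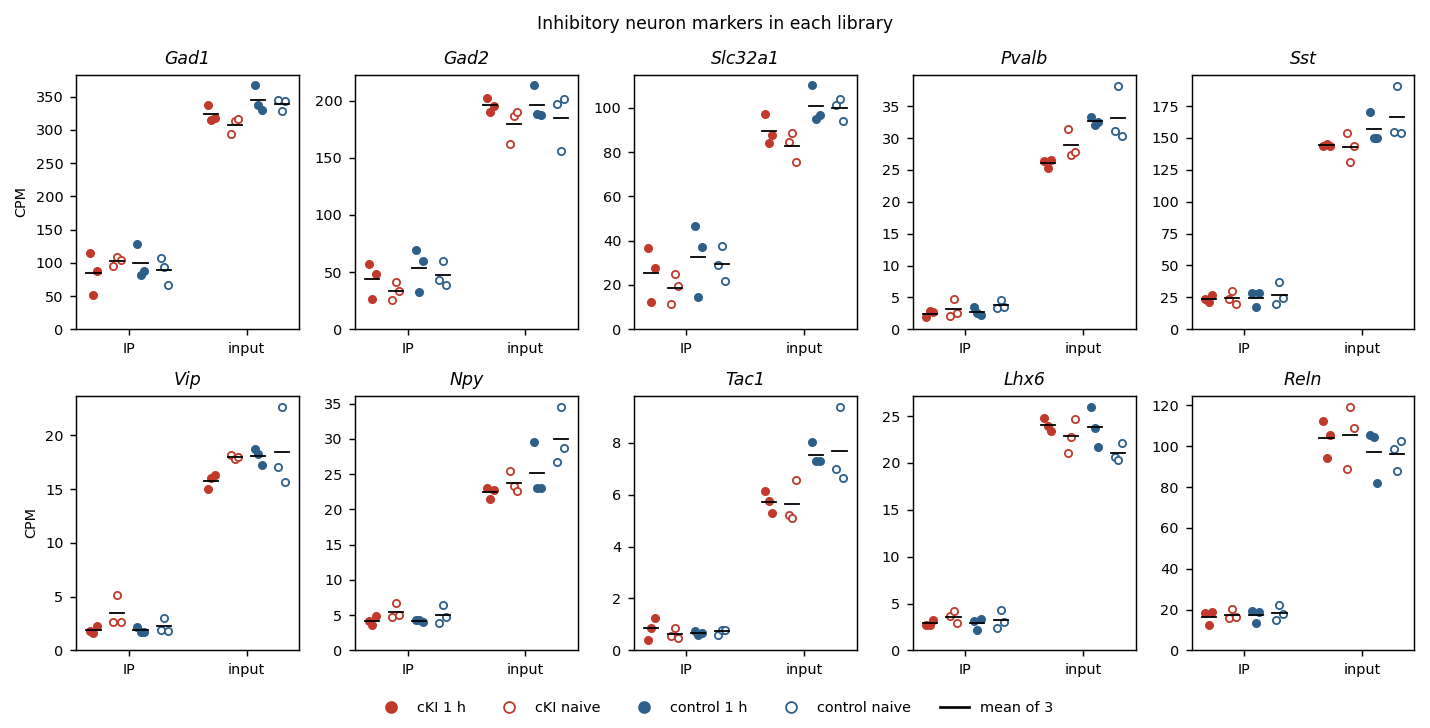
Level of each marker gene in CPM (vertical axis, from 0, with its own scale in each panel) in the 12 IPs on the left and the 12 inputs on the right; points are single libraries, filled at 1 h and open for naive mice, red for cKI and blue for control, and lines are means of 3. All 12 IPs lie below all 12 inputs for each gene, and Slc32a1 spreads from 11.5 to 46.7 CPM among IPs.

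Some peptide genes are textbook targets of CREB, a factor of activity-driven transcription that binds the cyclic AMP response element. Its palindrome TGACGTCA and its half-site TGACG were searched on both strands in the 250 bases before each RefSeq start site of GRCm38.p6, where all 10 genes matched with 13 start sites. The palindrome was found for 1 of the 10 genes, Sst, against 1.77% of 27025 genes in the table (1.55% of 32851 windows). The half-site, which each palindrome also holds, was found for 4 genes, Gad2, Sst, Vip and Tac1, against 19.8% of genes (17.8% of windows). The stretches of 30 bases around these matches are shown because they mark the genes among the 10 whose start carries the motif, with the match in capitals, on the strand of the gene. Where the half-site lies on the other strand, its capitals read CGTCA.
Sst (chr16:23890874-23890903, minus strand): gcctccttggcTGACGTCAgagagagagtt
Gad2 (chr2:22622282-22622311, plus strand): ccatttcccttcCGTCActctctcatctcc
Vip (chr10:5639127-5639156, plus strand): ggatcactactgTGACGtctttcggggagc
Tac1, far match (chr6:7554852-7554881, plus strand): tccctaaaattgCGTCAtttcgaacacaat
Tac1, near match (chr6:7555006-7555035, plus strand): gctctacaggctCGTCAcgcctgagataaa
The first base of the match lay 48 bases before the start site in Sst, 33 in Gad2, 79 in Vip and 197 and 43 in Tac1. Such a match describes the letters and not a bound site.

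Each mouse gave its own ratio of IP to input, on log2 CPM with TMM scaling, which allowed the genes to be compared with each other. Gad1 had a mean log2 ratio of -1.54 ± 0.34 (SD, n = 12), Slc32a1 of -1.63 ± 0.56 and Gad2 of -1.84 ± 0.44. These correspond to 34.5%, 32.4% and 28% of the input level. Below them came Npy at -2.11, Reln at -2.24, Sst at -2.32, Lhx6 at -2.55, Vip at -2.64, Tac1 at -2.85 and Pvalb at -3.03 ± 0.38, the last equal to 12.2% of input. Of the 45 pairs of genes, 37 differed by an exact two-sided sign-flip permutation test over the 12 mice after Benjamini-Hochberg adjustment over the 45. Gad1 stood above Pvalb by 1.49 ± 0.54 log2 units, in 12 of 12 mice (exact permutation p 0.000488, the smallest this test can give, adjusted p 0.0020). Neighbours in the order often did not separate, and the order was not the same in each group of mice. By edgeR, Gad2 (-2.11) lay below Npy (-1.82) in naive cKI mice, and Tac1 (-2.43) lay above Lhx6 (-2.74) in cKI mice at 1 h. Gad1 and Slc32a1 differed by 0.09 ± 0.50 (adjusted exact permutation p 0.58), Npy and Reln by 0.12 ± 0.39 (0.31), Sst and Reln by -0.09 ± 0.22 (0.23) and Vip and Lhx6 by -0.08 ± 0.37 (0.46). The other pairs that missed the threshold were Gad2 with Npy, Vip with Tac1, Tac1 with Lhx6 and Pvalb with Tac1.

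Each marker lay above the median of the glial transcripts, though some glial genes were depleted less than some markers. The median log2 ratio of 30 astrocyte, oligodendrocyte and microglia markers was -4.20 ± 0.15 (SD, n = 12), or 5.43% of input. Each of the 10 genes lay above that median in 12 of 12 mice (exact two-sided sign-flip permutation p 0.000488 for each, the smallest possible). The difference was smallest for Pvalb, at 1.17 ± 0.36 log2 units, and largest for Gad1, at 2.67 ± 0.38. None of the defining markers of the 3 glial lists was at 0 in any library. By edgeR all 10 astrocyte markers fell at a median of -3.90 (-4.82 to -2.99), all 10 of oligodendrocytes at -4.38 (-4.77 to -3.43) and all 10 of microglia at -4.60 (-4.95 to -2.16), and all 12 excitatory neuron markers rose at a median of 0.90.

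**Figure D2:**
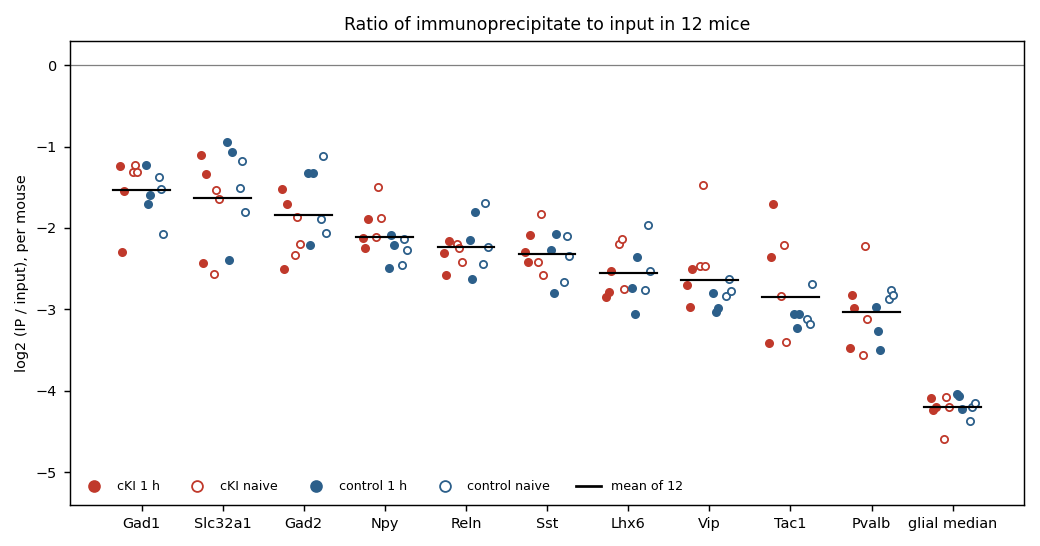
Log2 ratio of IP to input in each of 12 mice (vertical axis) for the 10 marker genes, ordered by mean, and for the median of 30 glial markers; colours and fills mark the 4 groups of mice and lines are means of 12. Gad1, Slc32a1 and Gad2 lie highest, Tac1 and Pvalb lowest, and the glial median at -4.20 lies below every mean.

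Other genes of the same cells and pathways behaved less evenly. Of 30 further inhibitory neuron markers 29 could be tested, of which 26 fell and 2 rose at a median of -1.38. The deepest were Sox6, a transcription factor of the Lhx6 lineage that is also made by glial precursors (-4.04), the serotonin receptor gene Htr3a (-3.20), the neuregulin receptor gene Erbb4 (-3.04) and the peptide gene Cort (-2.92). The 2 that rose, picked out after their values were seen, were the peptide gene Cck (1.03) and Lamp5 (0.95). Which cells gave these transcripts was not tested. Of 8 genes of GABA transport and breakdown 7 fell and 1 rose at a median of -1.49. Those that fell included the transporter genes Slc6a13 (-4.38), Slc6a11 (-2.25) and Slc6a12 (-1.58), some of which are used by glia and vessels. Receptors and adaptors for the products of Sst, Npy, Vip, Tac1 and Reln went both ways, with 6 of 15 tested of 17 listed higher and 5 lower at a median of 0.00. The tachykinin receptor genes Tacr3 (-3.06) and Tacr1 (-1.54), the VIP receptor gene Vipr2 (-2.39) and the somatostatin receptor gene Sstr1 (-1.69) had the largest falls. The genes whose ratios lay nearest to the mean of Gad1, Gad2 and Slc32a1 over the 12 mice, among 10632 whose log2 CPM averaged 2 or more, were Grin2d, Chn2, Gabrg1, Rapgef3 and Ndnf. Their root mean square differences from that mean were 0.20, 0.23, 0.28, 0.31 and 0.33 log2 units.

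Among IPs the marker genes varied more between mice of a group than most transcripts, and Slc32a1 and Gad2 had the largest within-group SD. Slc32a1 in IPs was 36.5, 12.3 and 27.7 CPM in cKI mice at 1 h, 11.5, 24.8 and 19.7 in naive cKI mice, 46.7, 14.3 and 36.9 in controls at 1 h and 29, 37.8 and 21.7 in naive controls. The 3 libraries of each group lay far apart, and the groups overlapped. Gad2 was 56.8, 26.6 and 48 CPM in IPs of cKI mice at 1 h, 26, 41.7 and 33.8 in naive cKI mice, 69.7, 32.3 and 59.6 in controls at 1 h and 43.3, 59.4 and 39 in naive controls. The highest IP was 4.06 times the lowest for Slc32a1, 2.68 times for Gad2 and 2.53 times for Gad1, against 1.46, 1.37 and 1.25 times among inputs. For Vip and Tac1 it was 3.29 and 3.01 times the lowest, against 1.51 and 1.83 times among inputs. The within-group SD of Slc32a1, Gad2 and Gad1 on the log2 scale exceeded that of 99.0%, 97.3% and 95.7% of the 12726 genes with a mean of at least 1 CPM in IPs. Of the others, Pvalb exceeded 95.3%, Vip 94.9%, Sst 94.3%, Lhx6 90.1%, Reln 89.8% and Npy 85.9%. Tac1 lay under that mean and was not ranked, but its SD of 0.42 exceeded the 0.39 of Gad1. In inputs the share was 49.6% for Slc32a1, 64.0% for Gad2 and 18.1% for Gad1, of 14431 genes. These ranks were not matched for level. Counts per IP ran from 52 to 193 for Vip, 63 to 201 for Pvalb and 77 to 186 for Lhx6. For Slc32a1 they ran from 378 to 1645. The part of counting error in the SDs was not tested.

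Gad1 and Gad2 did not keep 1 proportion across IPs. Since transcript length cancels only between libraries, the ratio of their CPM is read here across libraries alone. It was 2.03, 1.91 and 1.82 in IPs of cKI mice at 1 h and 3.68, 2.62 and 3.07 in naive cKI mice. It was 1.85, 2.55 and 1.47 in controls at 1 h and 2.49, 1.58 and 1.69 in naive controls. In inputs it stayed between 1.63 and 2.10, the highest being naive control replicate 2. The summed level of 8 dentate granule cell markers also ran from 233.7 to 1029.9 CPM among IPs, against 493 to 616 CPM among inputs. It was 943 and 1029.9 CPM in naive cKI IPs 1 and 3, which had the highest ratios of Gad1 to Gad2, and 239 CPM in the control IP 3 at 1 h, which had the lowest. The order was not strict: cKI IP 2 at 1 h had the lowest granule cell sum, 233.7 CPM, at a ratio of 1.91, and IPs 1 at 1 h had 743 CPM at 2.03 in cKI and 732 CPM at 1.85 in control mice. Granule cells of the dentate gyrus are known to make some Gad1 product alongside glutamate. The part of granule cell content in the spread of these genes was not tested.

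**Figure D3:**
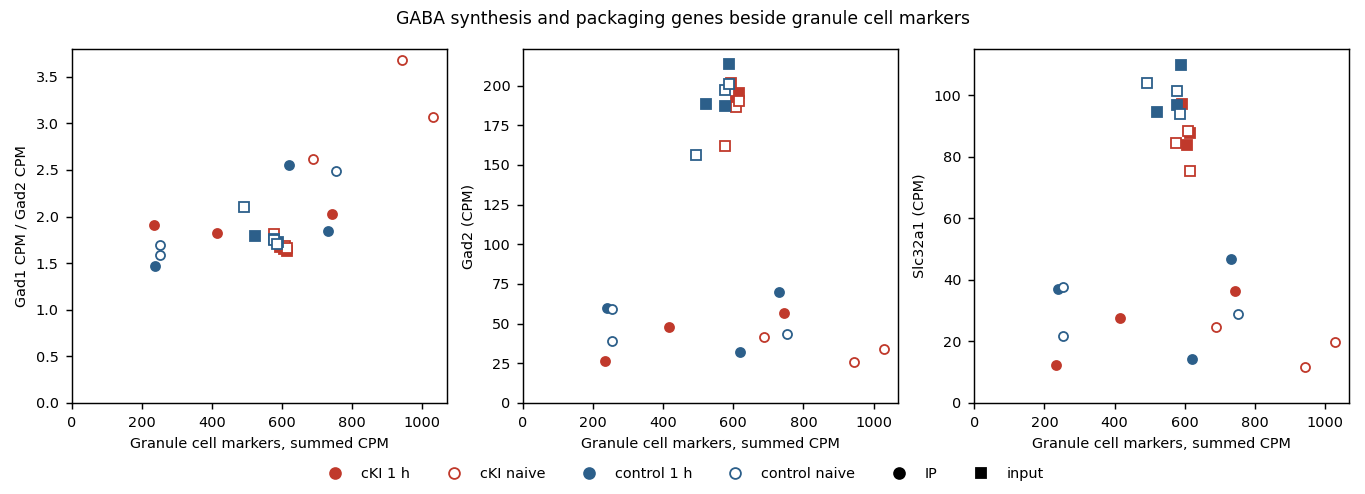
Ratio of Gad1 to Gad2 (left), Gad2 (middle) and Slc32a1 (right, both in CPM) against the summed CPM of 8 granule cell markers in each library; circles are IPs and squares inputs, red cKI and blue control, filled at 1 h and open for naive mice. Inputs cluster between 493 and 616 CPM of granule cell markers, while IPs spread from 233.7 to 1029.9 CPM and the Gad1 to Gad2 ratio reaches 3.68.

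In inputs, which sample the whole hippocampus, 3 of the 10 marker genes were lower in cKI than in control mice over both training states, and 0 were higher. These were Slc32a1, Pvalb and Tac1, at fold changes of 0.86, 0.83 and 0.75. This comparison asks whether the inhibitory transcripts of the tissue differ in level between the 2 labelled genotypes. Since the control eIF2α alleles are not spelled out, it cannot isolate removal of phosphorylatable eIF2α from Cre-expressing cells. By edgeR 2.00% of the 17232 genes tested were called lower and 3.15% in either direction. The median log2 fold change of the 10 was -0.15, beside 0.00 over all genes. At an unadjusted p under 0.05, 6 of the 10 were lower, beside 1868 of all genes.

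Pvalb was 26.4, 25.3 and 26.6 CPM in cKI inputs at 1 h and 31.4, 27.4 and 27.8 in naive cKI inputs. In controls it was 33.4, 32 and 32.5 CPM at 1 h and 31.1, 38.2 and 30.3 in naive mice. The ranges of the genotypes touched, since naive cKI replicate 1 lay above naive control replicates 1 and 3. At 1 h all cKI values lay below all control values, and 22.8% of all genes did not overlap there, in either direction. On the log2 scale cKI over control was -0.27 (SE 0.05, edgeR adjusted p 0.017), and it was -0.26 (adjusted p 0.057) without cKI replicate 2 at 1 h.

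Slc32a1 was 97.2, 83.9 and 87.7 CPM in cKI inputs at 1 h and 84.6, 88.4 and 75.6 in naive cKI inputs. In controls it was 110.1, 94.8 and 96.9 CPM at 1 h and 101, 104 and 94 in naive mice. Only cKI replicate 1 at 1 h reached into the control range. On the log2 scale cKI over control was -0.22 (SE 0.05, edgeR adjusted p 0.033), and the call was lost in 6 of the 12 omissions of 1 library, where the adjusted p reached 0.097. These were cKI replicates 2 and 3 and control replicate 1 at 1 h, naive cKI replicates 1 and 3 and naive control replicate 1.

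Tac1 was 6.16, 5.77 and 5.28 CPM in cKI inputs at 1 h and 5.22, 5.11 and 6.58 in naive cKI inputs. In controls it was 8.02, 7.31 and 7.29 CPM at 1 h and 7.00, 9.37 and 6.65 in naive mice. The 6 cKI values all lay below the 6 control values, the nearest being naive cKI replicate 3 and naive control replicate 3. Between the genotypes 3.28% of all genes did not overlap, in either direction. On the log2 scale cKI over control was -0.42 (SE 0.09, edgeR adjusted p 0.027), and the call was lost in 6 of the 12 omissions, where the adjusted p reached 0.082. These were cKI replicates 2 and 3 and control replicates 1 and 2 at 1 h and naive cKI replicates 1 and 2.

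The other markers of inputs did not pass. On the same scale Npy was at -0.25 (SE 0.07, edgeR adjusted p 0.070), Sst at -0.17 (SE 0.05, edgeR adjusted p 0.091) and Gad1 at -0.12 (SE 0.04, edgeR adjusted p 0.089). Sst was 143, 146 and 144 CPM in cKI inputs at 1 h and 154, 131 and 144 in naive cKI inputs, against 171, 150.2 and 149.7 CPM in controls at 1 h and 155, 191 and 154 in naive controls. Its ranges overlapped, and naive control replicate 2 was the highest. That library had the highest input level of the 12 for Pvalb, Sst, Vip, Npy and Tac1 and the lowest for Gad2 and Lhx6. Vip (-0.12, SE 0.07), Gad2 (-0.03, SE 0.07), Lhx6 (0.06, SE 0.06) and Reln (0.11, SE 0.09) had adjusted p of 0.35 or more by edgeR. Without both inputs that stood apart, a setting chosen after seeing the data, 4 marker genes were called lower. They were Slc32a1, Pvalb, Tac1 and Gad1 (-0.15, edgeR adjusted p 0.013). Calls rose among all genes too, with 512 of 17407 called lower in that setting, against 344 of 17232 with all inputs.

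Within a training state, edgeR called 0 of the 10 in inputs. In naive mice 0.859% of all genes were called by edgeR. DESeq2 called 1 of the 10 in naive mice, Slc32a1, beside 287 of all 17232 genes lower in cKI and 214 higher. There 6 of the 10 had an unadjusted p under 0.05, all lower in cKI, beside 17.6% of all genes in either direction. Npy was 25.5, 23.4 and 22.5 CPM in naive cKI inputs, against 26.7, 34.6 and 28.8 CPM in naive control inputs. Gad1 was 293, 314 and 316 CPM in naive cKI inputs, against 345, 328 and 343 CPM in naive control inputs. Together with Slc32a1 and Tac1, these genes did not overlap between the naive groups, as 19.4% of all genes did not, and log2 fold changes were -0.34 for Npy, -0.15 for Gad1, -0.27 for Slc32a1 and -0.45 for Tac1 (edgeR adjusted p 0.097 to 0.18). At 1 h, where edgeR called 0.267% of all genes, DESeq2 called 1 of the 10, Pvalb, beside 163 of all 17232 genes. There 3 had an unadjusted p under 0.05, again all lower in cKI, beside 8.98% of all genes. The 46 genes behind that 0.267% became 3 to 207 when 1 library was left out. Pvalb, Sst, Vip and Tac1 did not overlap there, as 22.8% of all genes did not, with log2 fold changes of -0.32 for Pvalb, -0.12 for Sst, -0.20 for Vip and -0.40 for Tac1 (edgeR adjusted p 0.11 to 0.68). The interaction of genotype and training passed for 0 of the 10 by edgeR, with 0 at an unadjusted p under 0.05 and 0 by DESeq2, and with 0.0348% of all genes called. In IPs it likewise passed for 0, with 0 at such a p and 0 by DESeq2, where 0.0131% of all genes were called.

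Lane and genotype were only partly separable, because most control inputs were read on another lane than the cKI inputs. With lane as a covariate 0 of the 10 were called and 18 genes in all, while the log2 fold changes were -0.28 for Slc32a1, -0.36 for Pvalb and -0.59 for Tac1 (edgeR adjusted p 0.15, 0.11 and 0.12). On lane 4 alone, 3 naive cKI inputs against 2 naive control inputs gave -0.30 for Slc32a1, -0.26 for Pvalb and -0.53 for Tac1, none of them called (edgeR adjusted p 0.13 to 0.18). At 1 h no lane held inputs of both genotypes.

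Markers of other cell types differed in level in the same inputs. Of 10 oligodendrocyte markers 8 were lower in cKI inputs and 0 higher, at a median of -0.31, among them Mobp (-0.43), Mal (-0.40), Cldn11 (-0.37) and Mbp (-0.36). Their sum ranged from 4179 to 5107 CPM in cKI inputs and from 4617 to 6649 CPM in control inputs. Of 10 astrocyte markers 3 were lower, at a median of -0.11, namely Agt (-0.53), Aldoc (-0.16) and Gfap (-0.16), with sums of 2363 to 2544 CPM in cKI inputs and 2504 to 2683 CPM in control inputs. Of 5 oligodendrocyte precursor markers Gpr17 was lower (-0.26), with sums of 174 to 214 CPM in cKI inputs and 198 to 229 CPM in control inputs, and of 10 vessel markers Emcn (-0.53), with 127 to 161 CPM in cKI inputs and 149 to 189 CPM in control inputs. By edgeR 0 of 12 excitatory neuron, 0 of 8 granule cell and 0 of 10 microglia markers passed, with 3, 5 and 5 at an unadjusted p under 0.05 and medians of 0.08, 0.13 and 0.14. Excitatory neuron markers summed to 7963 to 8773 CPM in cKI inputs and 7422 to 8294 CPM in control inputs. Granule cell markers summed to 577 to 616 CPM in cKI inputs and 493 to 589 CPM in control inputs, and microglia markers to 492 to 617 CPM in cKI inputs and 459 to 546 CPM in control inputs. No marker of these 7 lists was at 0 in any library. The part of cell content in the lower levels of Slc32a1, Pvalb and Tac1 was not tested. Of the 29 further inhibitory neuron markers, Cort (-0.67), Dlx5 (-0.43) and Crhbp (-0.26) were lower and Adarb2 (0.67) was higher in cKI inputs, at a list median of -0.02. Cort encodes cortistatin, a relative of somatostatin, Dlx5 a homeobox factor, Crhbp a binding protein of corticotropin-releasing hormone and Adarb2 a member of the RNA editing enzyme family. Of the GABA transport and receptor lists, 0 of 8 and 0 of 15 passed by edgeR, with 1 and 5 at an unadjusted p under 0.05.

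**Figure D4:**
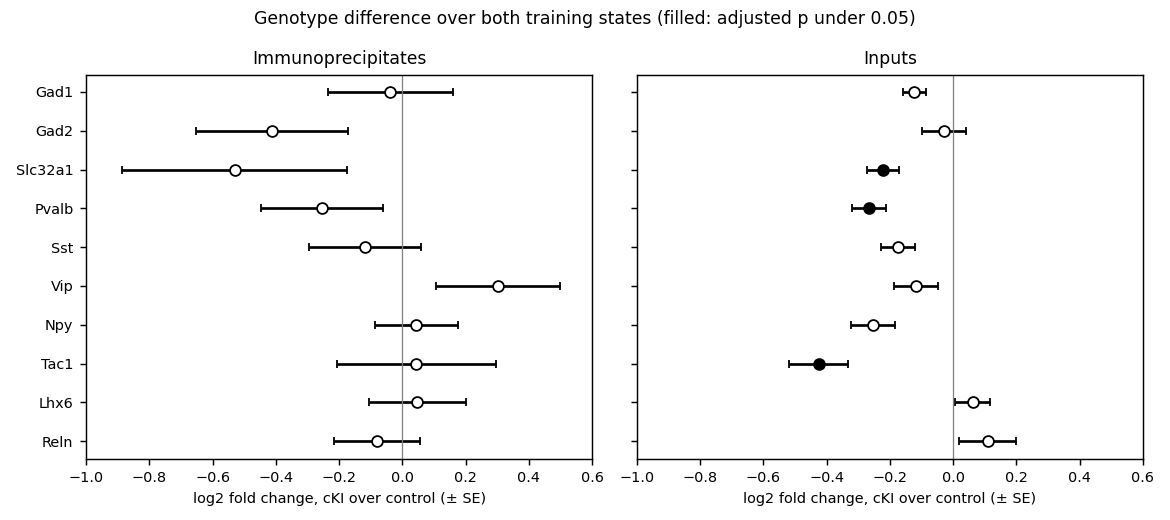
Log2 fold change of cKI over control, averaged over both training states, for the 10 marker genes in IPs (left) and inputs (right), with bars of 1 standard error; filled points passed an edgeR adjusted p of 0.05. Slc32a1, Pvalb and Tac1 passed in inputs and 0 genes passed in IPs, where the standard errors were wider.

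In IPs 0 of the 10 differed between genotypes by edgeR, where 1.69% of the 15238 genes tested were called over both training states. DESeq2 also called 0, and 0 had an unadjusted p under 0.05. The median of the 10 was -0.06, beside 0.00 over all genes. The largest differences were those of Slc32a1, at -0.53 (SE 0.36, edgeR adjusted p 0.46), and Gad2, at -0.41 (SE 0.24, edgeR adjusted p 0.39), the genes with the largest within-group SD among the 10. Gad1 was at -0.04 (SE 0.20), Pvalb at -0.25 (SE 0.19), Sst at -0.12 (SE 0.18) and Tac1 at 0.04 (SE 0.25). Vip was at 0.30 (SE 0.20), Npy at 0.04 (SE 0.13), Lhx6 at 0.05 (SE 0.15) and Reln at -0.08 (SE 0.13). With lane as a covariate Slc32a1 was at -1.13 (SE 0.61, adjusted p 0.64) and Tac1 at 0.88 (SE 0.35, adjusted p 0.61), neither called. On lane 6 alone, 2 cKI IPs against 3 control IPs at 1 h gave -0.70 for Slc32a1, -0.52 for Gad2 and 0.69 for Tac1, none called (edgeR adjusted p 0.57 to 0.74). The naive IPs of the genotypes shared no lane. In naive mice, where 3.70% of genes were called, 0 passed and 1, Vip, had an unadjusted p under 0.05, beside 22.3% of all genes. The 564 genes behind that 3.70% became 22 without naive control replicate 2, 40 without naive control replicate 3 and 933 without naive control replicate 1. At 1 h, where 0.0591% were called, 0 passed and 0 had such a p, and DESeq2 called 0 in both states. Beside these values, 8 of 8 granule cell markers had a positive log2 fold change in IPs and 0 passed, at a median of 0.49, with sums of 233.7 to 1029.9 CPM in cKI IPs and 239 to 753 CPM in control IPs. Of 10 oligodendrocyte markers 2 were lower in cKI IPs, at a median of -0.30. The part of either in the IP values was not tested.

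Vip had an unadjusted p under 0.05 in 2 comparisons of IPs. It was 1.82, 1.58 and 2.26 CPM in IPs of cKI mice at 1 h and 2.62, 5.18 and 2.61 in naive cKI mice, and 2.16, 1.73 and 1.70 CPM in controls at 1 h and 1.88, 2.99 and 1.82 in naive controls. Naive cKI replicate 2 was the highest of the 12. Within cKI mice the 3 values at 1 h lay below the 3 naive ones, and 16.7% of all genes did not overlap there, in either direction. The log2 fold change of cKI over control in naive IPs was 0.60 (SE 0.27, edgeR adjusted p 0.21), and that of 1 h over naive in cKI IPs was -0.84 (SE 0.28, edgeR adjusted p 0.30). These comparisons share the naive cKI IPs, and without replicate 2 of that group they were 0.20 and -0.45. With lane as a covariate they were 0.69 and -0.91 (edgeR adjusted p 0.75 and 0.93). That library also had the highest IP level of Pvalb and of Npy.

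At 1 h after conditioning none of the 10 passed in any genotype or fraction. In IPs edgeR called 0 of 10 in cKI mice, where 0.0459% of genes were called and 1 of the 10, Vip, had an unadjusted p under 0.05, beside 12.8% of all genes. It called 0 of 10 in controls, where 0.328% were called and 0 had such a p. In inputs it called 0 of 10 in cKI mice, where 0.0174% were called and 0 had such a p, and 0 of 10 in controls, where 0.737% were called. In those control inputs Npy (-0.24, SE 0.10, edgeR adjusted p 0.35) and Lhx6 (0.19, SE 0.08, edgeR adjusted p 0.38) had an unadjusted p under 0.05, beside 11.7% of all genes. DESeq2 called 0 in all 4. For Sst, 1 h over naive was 0.02 (SE 0.25) in cKI IPs, -0.12 (SE 0.25) in control IPs, 0.03 (SE 0.08) in cKI inputs and -0.08 (SE 0.08) in control inputs. In inputs the standard errors of the 10 genes were 0.05 to 0.13 and in IPs 0.19 to 0.51, so that the IPs could show only larger changes. Sst, whose start holds the full palindrome, and Gad2, Vip and Tac1 with the half-site did not pass in any of the 4 comparisons, nor did the 6 genes without a match.

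For the ratio of IP to input, edgeR called 0 of the 10 by genotype or by training. Between genotypes, where 0.0229% of the 17453 genes were called, 2 of the 10 had an unadjusted p under 0.05, Vip at 0.44 (SE 0.21, adjusted p 0.31) and Npy at 0.32 (SE 0.15, adjusted p 0.31), beside 15.6% of all genes. Between 1 h and naive, 0.00573% of genes were called in cKI mice and as many in controls. In cKI mice 1 of the 10 had an unadjusted p under 0.05, beside 5.95% of all genes, again Vip, at -0.68 (SE 0.29, adjusted p 0.82), and in controls 0 had. Without the mouse of naive cKI replicate 2 the values of Vip were 0.22 between genotypes and -0.26 between 1 h and naive. DESeq2 called 0 in these 3 comparisons.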

How the data were processed

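RNA from hippocampal inputs and anti-HA immunoprecipitates was made into directional, poly(A)-selected libraries and read in pairs, per the labels' protocols. The authors deposited raw counts per gene, each row with a symbol and a transcript identifier. The names cutadapt, Bowtie and DESeq2 appear in the submitters' processing notes. Which tool counted, with which strand setting and on which build, is not given in the sources used here. All 24 columns matched a sample by name.

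From those counts, CPM were computed on library totals. Genes were filtered by filterByExpr and tested with edgeR 4.0.16 (TMM, robust quasi-likelihood) within inputs, within IPs and over all libraries, in R 4.3.3, with Benjamini-Hochberg adjustment over all genes tested and a threshold of 0.05. Ratios per mouse used a prior count of 2 before the log2 of CPM, and an exact two-sided sign-flip permutation test in Python 3.11.15 with scipy 1.17.1. An IP and an input of the same mouse were paired through the animal in the sign-flip tests and in the alternative with a mouse block. The main edgeR tests of IP over input and of its ratio fitted group means without that pairing. Each library is 1 mouse. The scripts were tested on simulated counts. Alternatives were DESeq2 1.42.0, its size factors, no filter, lane as a covariate, a replicate block, a mouse block and leaving out each library.

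The members and all gene lists were chosen with earlier results of these data known. Genes named beyond the 10 were checks of fraction, genotype and training, up to 4 genes per list and comparison with the largest called change, and the 5 nearest in ratio. Some genes that this rule would name are not reported here. Promoter windows came from RefSeq on GRCm38.p6. Library totals, given with the results, limit precision through counting error, and the 3 mice per group limit it further.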

Additional observations from a re-analysis of the deposited data

How the results depend on the processing

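The 10 falls in IPs against inputs were called under each alternative run and in each omission of 1 mouse, except Slc32a1 with lane as a covariate. For genotype in inputs over both training states, where edgeR called 3 of the 10, lane as a covariate gave 0, DESeq2 gave 5 (with Sst and Npy added) and leaving out 1 library gave 0 to 4. In naive inputs, where edgeR called 0, DESeq2 and the absence of a filter each called 1. Among all genes in naive inputs, 217 of 29017 were called without a filter, against 148 of 17232 with it. At 1 h DESeq2 called 1 of the 10 and leaving out 1 library gave 0 to 1. The cause was not tested, beyond fewer libraries in each omission. Over all genes, 543 were called for genotype in inputs, against 18 with lane as a covariate, 292 with a replicate block, 946 by DESeq2, 827 without both inputs that stood apart and 164 to 741 in the omissions. At 1 h, 46 genes were called in inputs, against 1 with lane as a covariate, 3 without cKI replicate 2 and 207 without naive control replicate 2. For genotype in IPs, 258 genes were called over both training states, against 3 with lane as a covariate, 467 with a replicate block, 778 by DESeq2 and 52 to 395 in the omissions. In naive IPs these were 564 genes, against 1, 1018, 1285 and 22 to 933. For IP over input, lane as a covariate called 9763 genes against 14996. Replicate numbers did not pair libraries: the median correlation of same-numbered deviations was -0.03 in inputs and 0.05 in IPs, 0 of 18 input pairs and 7 of 18 IP pairs were over 0.1 (highest 0.40), and 8 of 36 input comparisons and 14 of 36 IP comparisons were best with their own number. With the replicate block 2 of the 10 were called in inputs, without Tac1 (edgeR adjusted p 0.062), and no other call among the 10 changed. No member that passed changed sign under any alternative. Among values that had not passed, lane as a covariate changed the sign of 31 of 160 and the omissions of 146 of 1920. IPs held as few as 14 counts of Tac1, which limits what could be seen there.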
